A study of Mus musculus with 16 samples.

Results

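The 10 genes described here belong to the Hippo-YAP pathway or are widely used readouts of it: Yap1, Tead1, Lats2, Amotl1, Amotl2, Axl, Actn1, Ankrd1, Ccn1 (also named Cyr61) and Ccn2 (also named Ctgf). They were chosen by a list of symbols, out of 49166 genes, and 9 of them were among the 16971 genes that passed the low-count filter. The tenth, Ankrd1, is described by its counts only. The list was selected on measured values in part: it was drawn up knowing that Amotl2 and Actn1 had some of the smallest p-values among genes lower in the vehicle-treated knockout. For the knockout against the control the values of the 10 genes are therefore a description, with no test.

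The cells were neural progenitor cells (NPCs) grown from E18.5 (late embryonic) mouse cortex. Per the labels' protocols, every culture carried a lentivirus that expresses Cas9 and was selected with puromycin. The control virus (WT) carried Cas9 alone, and the knockout virus (KO) also carried a guide RNA against Chd1, a chromatin remodeller. The labels name no clones and no guide in the control virus. The 4 groups were WT with DMSO, KO with DMSO, KO with 10 nM dihydrotestosterone (DHT, an androgen) for 24 h, and KO with 10 nM DHT and 10 µM enzalutamide (ENZ, an androgen receptor antagonist), the ENZ added 30 min before the DHT. No WT culture received DHT and no culture received ENZ alone, so an effect of ENZ apart from DHT cannot be told apart from its action on top of DHT. Each group had 4 biological replicates whose embryos belonged to 2 litters; no label ties a replicate to its litter.

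Libraries held 31.8 to 36.9 M estimated counts (M, mega), and WT DMSO replicate 1 held 20.2 M. That library also stood apart on the second principal component and had 1.35% of its counts on mitochondrial genes, against 2.90% to 3.74% in the other 11 libraries without ENZ and 4.31% to 4.50% in the 4 with DHT and ENZ. Results of the listed genes that rest on it are given with and without it. The first component, with 43.2% of the variance, set replicates 1 and 4 apart from replicates 2 and 3 in each group. Chd1 RNA was at 66.7 ± 5.73 CPM (counts scaled to a common library size) in WT DMSO and 67.3 ± 2.68 CPM in KO DMSO (SD, n = 4 each). A small insertion or deletion at a cut site need not lower RNA, so this level does not check the genotype labels. The 12 neural progenitor markers summed to 7138 to 9789 CPM over the 16 libraries. Markers of pericytes, meninges and fibroblasts summed to 18.8 to 32.9 CPM, most of it Foxc1, and those of endothelium to 9.36 to 18.6 CPM. Microglia and macrophage markers (7 genes) summed to 3.34 to 7.62 CPM, with C1qa and Tyrobp at 0 in every library and P2ry12 at 1.72 to 4.06 CPM. In WT DMSO replicate 1 Ptprc was at 2.88 and Cx3cr1 at 1.905 CPM, against at most 0.54 and 0.39 CPM in any other library. The endothelial Pecam1 (3.81 against at most 0.96 CPM) and Tie1 (1.35 against at most 0.22 CPM) were also highest there. P2ry12 was lowest there, and Csf1r, Kdr, Flt1, Tek and Emcn lay within the range of the other libraries. The source of these transcripts was not tested. Oligodendrocyte lineage markers summed to 1664 to 2599 CPM and neuron markers to 834.3 to 1373 CPM.

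In the Hippo pathway a kinase cascade that ends in LATS1 and LATS2 phosphorylates the coactivators YAP and TAZ and keeps them out of the nucleus. Unphosphorylated YAP and TAZ bind TEAD factors on DNA and switch on genes of growth, adhesion and the cytoskeleton. Cell contact, polarity proteins and tension in actin fibres feed into the cascade, and angiomotin proteins (AMOT, AMOTL1 and AMOTL2) hold YAP at junctions and on actin. LATS2 and AMOTL2 are themselves induced by YAP, which makes them feedback inhibitors as well as targets. In the embryonic cortex the pathway is known for its part in the growth of radial glia.

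TEAD factors recognise the sequence CATTCC, or GGAATG on the other strand. The stretches below are shown because they are where those letters stand next to the start site of the listed genes. Windows of 250 bases before to 50 bases after each annotated start came from RefSeq on GRCm38.p6. Of the 10 genes 8 had a window in the table, and 6 of these 8 (75.0%) held the motif on either strand, against 16.58% of 27025 genes in the same table and 14.66% of 32851 windows. The motif is reported as letters in a window, with no evidence here on binding. Each line runs 5′ to 3′ along the gene's own strand, and capitals mark the motif.

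Ccn1, chr3:145649986-145650235, minus strand, the 250 bases before the start: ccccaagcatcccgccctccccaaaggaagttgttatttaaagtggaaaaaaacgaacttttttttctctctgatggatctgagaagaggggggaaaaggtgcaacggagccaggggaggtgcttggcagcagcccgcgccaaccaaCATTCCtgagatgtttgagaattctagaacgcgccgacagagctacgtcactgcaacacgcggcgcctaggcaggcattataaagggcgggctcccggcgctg
Amotl2, chr9:102717727-102717756, plus strand: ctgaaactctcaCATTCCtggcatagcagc
Lats2, chr14:57746102-57746131, minus strand: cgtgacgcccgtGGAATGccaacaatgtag
Yap1, chr9:8004720-8004749, minus strand: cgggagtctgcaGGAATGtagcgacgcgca
Axl, chr7:25788949-25788978, minus strand: ggaaattctacaGGAATGtttaccagaccc
Ankrd1, chr19:36120037-36120066, minus strand: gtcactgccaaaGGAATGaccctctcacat
Ankrd1, chr19:36119950-36119979, minus strand: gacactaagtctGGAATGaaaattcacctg

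The motif began 103 bases before the start in Ccn1, 65 before in Amotl2, 141 before in Yap1 and 233 before in Axl. Ankrd1 held 2 copies, 210 and 123 bases before the start. In Lats2 it began at base 5 after the start in 1 of its 2 annotated windows, inside an exon. Set against GENCODE M21 exons of the same build, the Amotl2 copy also lay inside an exon of Amotl2-201 and the Ankrd1 copies inside an exon of Ankrd1-205, while those of Ccn1, Yap1 and Axl overlapped no exon. The windows of Amotl1 and Actn1 held no copy. The CArG box, the motif of the serum response factor SRF, was in 0 of the 8 genes' windows. It was in 1.81% of 27025 genes and in 1.63% of all windows. At so low a share, 0 of 8 genes says nothing particular about them.

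Compared per transcript length, Yap1 and Amotl1 were the most abundant of the 10 genes. Deposited TPM (transcript abundance corrected for length) averaged 56.1 ± 4.56 for Yap1 and 55.1 ± 12.6 for Amotl1 (SD, n = 16 libraries), and these did not differ beyond their spread. Ccn2 followed at 32.6 ± 11.5 TPM. Tead1 at 18.2 ± 3.65, Lats2 at 17.0 ± 3.45 and Ccn1 at 12.6 ± 4.22 TPM lay within each other's spread. Axl at 11.3 ± 1.76, Amotl2 at 9.98 ± 2.72 and Actn1 at 9.71 ± 2.01 TPM formed the lower end, also without separation from their neighbours. Ankrd1 stood alone at 0.06 ± 0.06 TPM.

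**Figure D1:**
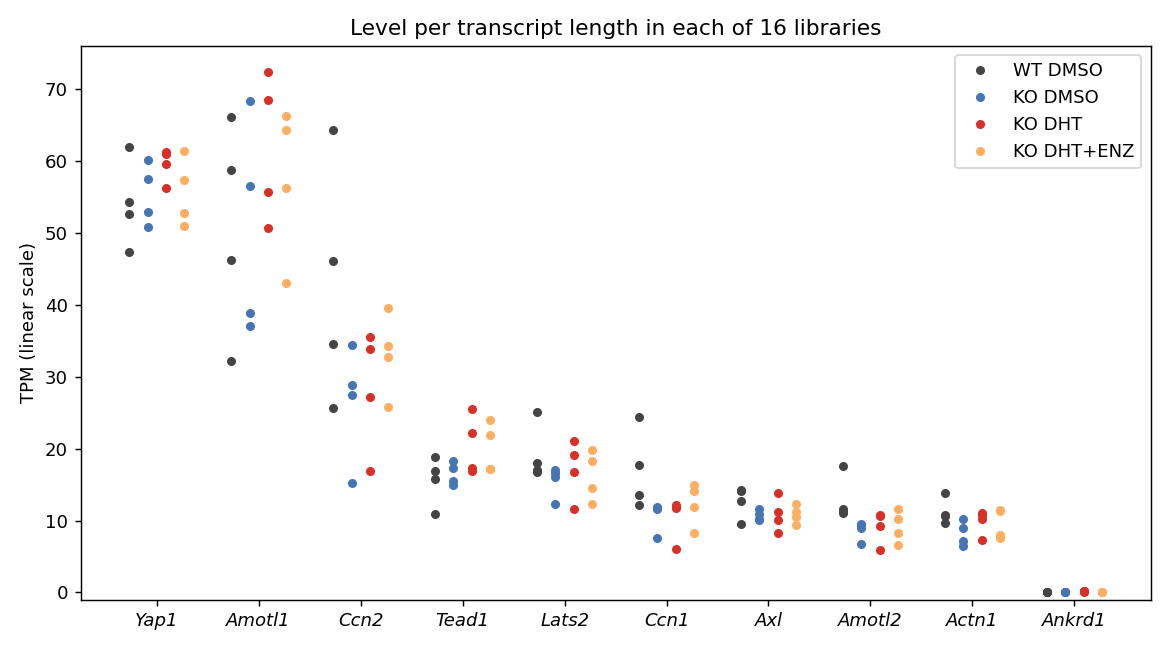
Deposited TPM (linear scale, y axis) of the 10 genes in each of 16 libraries, coloured by group; each point is 1 library. Yap1 and Amotl1 average 56.1 and 55.1 TPM, Ccn2 spans 15.2 to 64.3 TPM, and Ankrd1 lies at or near 0.

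Ankrd1, an ankyrin repeat protein of muscle and a standard YAP target in many cell types, was close to the detection limit. Its estimated counts were 1.4, 4, 0 and 1 in WT DMSO replicates 1 to 4, and 4, 1, 0 and 0 in KO DMSO. With DHT they were 5, 6, 0 and 6, and with DHT and ENZ 1, 0, 0 and 1. Of the 16 libraries 6 were at 0, which allows up to 0.0846 to 0.0921 CPM of the unadjusted total in those libraries (3 counts, counting error only). Where counts were present, kallisto's model placed on average 96.7% of them on a transcript with a retained intron and not on the coding one. No comparison was made for this gene.

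Yap1, the coactivator, was the steadiest of the 9 tested genes. Its level was 150.6, 147.6, 150.7 and 155.1 CPM in WT DMSO and 150.8, 153.4, 159.6 and 156.8 CPM in KO DMSO. With DHT it was 151.0, 171.9, 158.0 and 151.6 CPM, and with DHT and ENZ 149.4, 165.3, 161.7 and 153.6 CPM. All 4 groups overlapped, and the highest library was 1 of the DHT replicates. Between KO DMSO and WT DMSO its log2 fold change was 0.04 (SE 0.07).

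Most Yap1 counts fell on 2 coding transcripts. Yap1-202 held 55.5% ± 4.67 and Yap1-201 43.3% ± 4.54 of the gene's estimated counts (SD, n = 16), and the 4 group means of Yap1-201 lay between 42.2% and 44.5%. The longer form carries an extra coding exon of 48 bases, exon 6 of 9, at chr9:7950492-7950539 on the minus strand of GRCm38, which inserts residues in the transactivation domain. It is printed because 1 form has it and the other lacks it, with 15 bases of the neighbouring exon on each side in lower case and the exon in capitals.
Yap1 exon 6: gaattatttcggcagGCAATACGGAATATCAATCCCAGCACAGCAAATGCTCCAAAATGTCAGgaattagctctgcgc

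Tead1, a DNA-binding partner of YAP, was at 61.8, 109.6, 113.1 and 109.4 CPM in WT DMSO and 102.8, 106.0, 107.7 and 101.3 CPM in KO DMSO. WT DMSO replicate 1 was the low value, and the other 3 controls were slightly above all 4 libraries of KO DMSO. The log2 fold change was 0.08 (SE 0.15), and -0.08 (SE 0.10) without that library. With DHT, Tead1 was at 143.3, 102.7, 117.2 and 127.0 CPM, and with DHT and ENZ at 147.4, 120.5, 118.7 and 136.2 CPM.

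Lats2, the kinase that inhibits YAP, was at 58.5, 86.5, 66.6 and 57.4 CPM in WT DMSO. In KO DMSO it was at 55.7, 58.3, 44.0 and 54.0 CPM, lower in each of the 4 same-numbered pairs, although the groups overlapped. The fitted log2 fold change was -0.34 (SE 0.15). Levels with DHT (54.7, 60.3, 40.8 and 56.8 CPM) and with DHT and ENZ (65.3, 58.5, 47.9 and 60.2 CPM) overlapped with those of KO DMSO.

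Amotl1 and Amotl2, the angiomotin-like scaffolds, differed in pattern. Amotl2 was at 28.3, 46.8, 32.9 and 24.7 CPM in WT DMSO and at 21.3, 26.0, 17.4 and 19.4 CPM in KO DMSO. Only the KO DMSO replicate 2 library reached the range of the controls, and Amotl2 was lower in 4 of 4 pairs, with a log2 fold change of -0.66 (SE 0.18). It stayed at 19.9, 23.0, 16.6 and 21.96 CPM with DHT and 23.2, 23.7, 17.9 and 24.7 CPM with DHT and ENZ. Amotl1 was at 343.8, 278.7, 223.8 and 352.7 CPM in WT DMSO and 309.1, 248.8, 242.3 and 369.3 CPM in KO DMSO, and the groups overlapped. Replicates 1 and 4 of both groups were the high ones. The log2 fold change of Amotl1 was -0.04 (SE 0.15).

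Amotl2 counts were divided between Amotl2-201, with 62.9% ± 7.91, and Amotl2-203, with 32.6% ± 9.41 (SD, n = 16). The share of Amotl2-201 was 85.6% in WT DMSO replicate 1 and 46.6% to 67.4% in the other 15 libraries. Amotl1, Lats2, Ccn1, Ccn2, Actn1 and Tead1 each had over 90% of their counts, on average, on 1 coding transcript. Axl had 89.3% on Axl-201 and 8.78% on Axl-202.

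Ccn1 and Ccn2 encode secreted matricellular proteins and are the most used YAP targets. Ccn1 was at 15.5, 31.4, 25.2 and 15.8 CPM in WT DMSO and at 14.0, 16.1, 10.3 and 13.9 CPM in KO DMSO. Ccn2 was at 38.3, 101.2, 78.4 and 49.0 CPM in WT DMSO and at 50.4, 47.9, 25.3 and 39.7 CPM in KO DMSO. In both genes WT DMSO replicates 2 and 3 were above every knockout library of all 3 treatments, while WT DMSO replicates 1 and 4 were within the KO DMSO range. Ccn1 was lower in 4 of 4 pairs and Ccn2 in 3 of 4, with log2 fold changes of -0.70 (SE 0.24) and -0.71 (SE 0.27).

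Actn1 encodes alpha-actinin 1, a crosslinker of actin fibres. It was at 25.4, 27.2, 23.5 and 21.3 CPM in WT DMSO and at 19.5, 18.1, 15.5 and 19.3 CPM in KO DMSO. Every KO DMSO library was below every WT DMSO library in CPM, and the log2 fold change was -0.43 (SE 0.11). In deposited TPM these groups overlapped, at 9.63 to 13.9 in WT DMSO and 6.40 to 10.2 in KO DMSO. Axl, a receptor tyrosine kinase of the TAM family that YAP is known to induce, was at 27.6, 34.6, 28.9 and 23.1 CPM in WT DMSO and at 27.7, 27.9, 31.9 and 26.9 CPM in KO DMSO, with a log2 fold change of 0.00 (SE 0.14), and of -0.21 (SE 0.16) with an offset for transcript length.

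**Figure D2:**
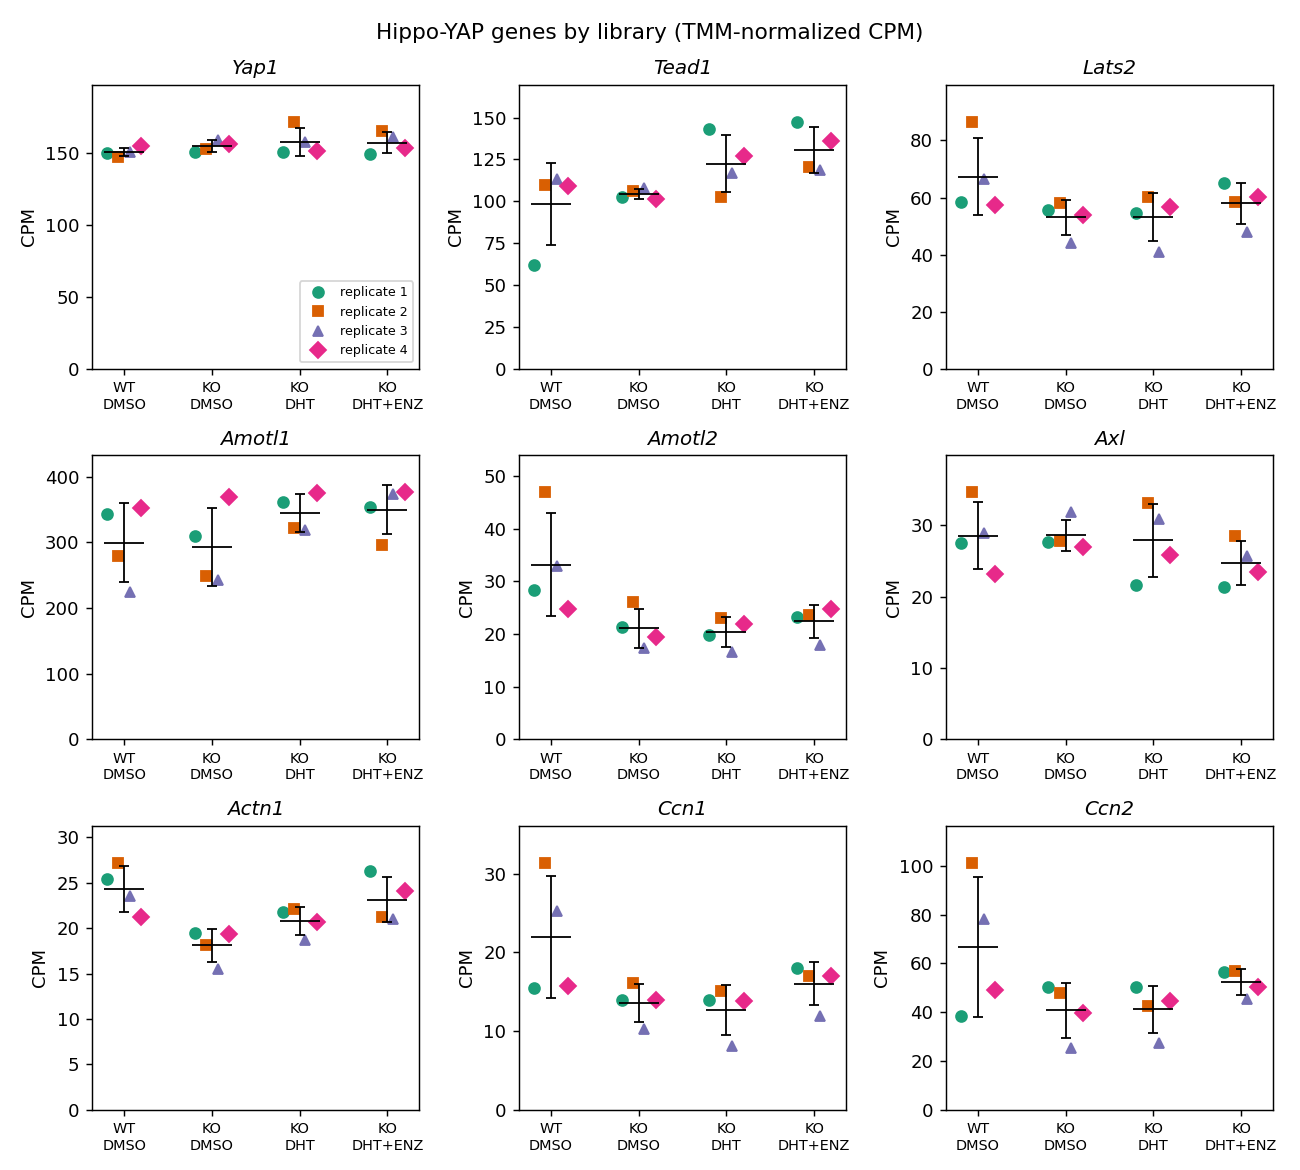
TMM-normalized CPM (y axis, from 0) of the 9 tested genes in each library by group (x axis); symbols mark the replicate number, horizontal bars the mean and error bars the SD of 4 libraries. WT DMSO replicate 2 is the highest of the 16 libraries in 6 of the 9 genes; Actn1 is the gene whose WT DMSO and KO DMSO values do not overlap.

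Over the 9 genes, KO DMSO set against WT DMSO gave 6 negative and 3 positive log2 fold changes. The median was -0.34, beside -0.00 over all genes tested, and this difference was part of what was known when the list was made. Actn1 was the only one whose groups did not overlap, against a background of 0.465% of 16971 genes lower with no overlap. Amotl2, Lats2, Actn1 and Ccn1 were lower in all 4 pairs, against 6.56% of all genes. In edgeR's quasi-likelihood test 0 of 16971 genes were called at an adjusted p under 0.05 (0%), and 508 (2.99%) had an unadjusted p under 0.05. In bulk RNA, fewer cells that express a gene and less RNA in each cell cannot be told apart.

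The difference was uneven over replicates. The median over the 9 genes was -0.07, -0.57, -0.60 and -0.11 in pairs 1 to 4. Ccn2 differed by 0.39, -1.08, -1.63 and -0.30 in those pairs, and Ccn1 by -0.15, -0.96, -1.28 and -0.18. WT DMSO replicate 2 had the highest level of 6 of the 9 genes among all libraries. Leaving it out moved the log2 fold change of Ccn2 to -0.44, of Ccn1 to -0.47, of Amotl2 to -0.44 and of Lats2 to -0.20, while Actn1 was at -0.37. Without WT DMSO replicate 1 the values were -0.90 for Ccn2, -0.83 for Ccn1, -0.72 for Amotl2, -0.40 for Lats2 and -0.41 for Actn1. Pairs 2 and 3 are also those that the first principal component set apart from 1 and 4, and its part in the result was not tested.

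**Figure D3:**
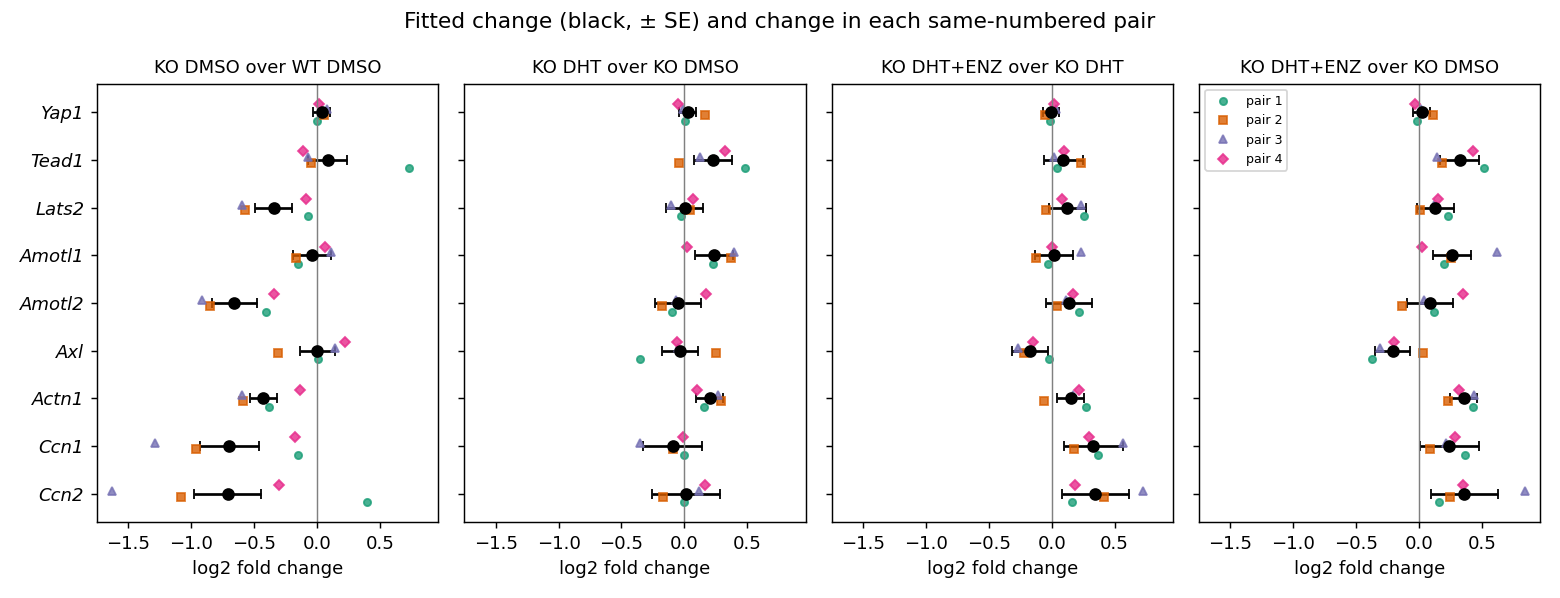
Log2 fold change (x axis) of the 9 tested genes (y axis) in 4 comparisons; black points with bars are the edgeR estimate ± SE from all 16 libraries, and coloured symbols the difference in each same-numbered pair. For KO DMSO over WT DMSO the pair values of Ccn2 run from -1.63 to 0.39; with ENZ added to DHT the pair values of Ccn1 and Ccn2 are all above 0.

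Adding DHT to the knockout cells addressed what androgen does in them. It shares the KO DMSO libraries with the comparison above, whose values were known when the genes were listed, so a value against KO DMSO is a description of those libraries. None of the 9 genes was called, nor was any of the 16971 genes tested (0%; 193 genes, 1.14%, at an unadjusted p under 0.05), with adjusted p = 0.9998 for each of the 9 (edgeR). The largest estimates belonged to Amotl1 (log2 fold change 0.24, SE 0.15), Tead1 (0.23, SE 0.15) and Actn1 (0.20, SE 0.11). Amotl1 and Actn1 were higher in 4 of 4 pairs, as were 11.3% of all genes. Ccn1 (-0.09, SE 0.24) was lower in 4 of 4 pairs, as were 13.2% of all genes, and Ccn2 was at 0.01 (SE 0.27).

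Amotl1 and Tead1 have the longest transcripts of the 10 genes, with effective lengths of 7874 and 8370 bases. In the same libraries the 623 genes of at least 6000 bases had a median log2 fold change of 0.15 with DHT, the 2663 genes under 1500 bases -0.09 and all 9747 genes averaging 10 CPM or more -0.02. These values are given beside Amotl1 and Tead1, and the part of transcript length in them was not tested. In a model with an offset for each library's own effective length of a gene, the estimates with DHT were 0.25 for Amotl1 and 0.24 for Tead1. That offset follows only changes in a gene's own length between libraries. It cannot decide the part of a shift shared by long genes.

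The comparison of DHT and ENZ with DHT alone asked what the antagonist does on top of androgen, and it shares no library with the knockout and control comparison. Ccn2 went from 50.3, 42.5, 27.4 and 44.5 CPM with DHT to 56.3, 56.9, 45.5 and 50.5 CPM with DHT and ENZ. Ccn1 went from 13.9, 15.1, 8.05 and 13.8 CPM to 18.0, 17.0, 11.97 and 17.0 CPM. Both genes were higher in 4 of 4 pairs while the groups overlapped, and neither passed the test. Their log2 fold changes were 0.35 (SE 0.27; adjusted p = 0.998, edgeR) for Ccn2 and 0.33 (SE 0.24; adjusted p = 0.979, edgeR) for Ccn1. With the replicate number as a block, Ccn2 was at 0.353 (SE 0.24, adjusted p = 0.54, edgeR). Ccn1 was then at 0.345 (SE 0.196, adjusted p = 0.433, edgeR). In the fit without the block and without KO DHT replicate 3, the lowest library of both genes in that group, the estimates were 0.20 for Ccn2 and 0.17 for Ccn1. Mitochondrial genes held more of the counts in all 4 libraries with DHT and ENZ than in the other 12, as given above, and the part of this in the results was not tested.

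Of the 9 genes 0 were called with ENZ added, against a background of 45 of 16971 genes (0.265%; 1182 genes, 6.96%, at an unadjusted p under 0.05). With the replicate number as a block the background was 591 genes (3.48%), and again 0 of the 9 were called. Amotl2 (0.14, SE 0.18) and Tead1 (0.09, SE 0.15) were also higher in 4 of 4 pairs, which makes 4 of 9 genes beside 14% of all genes. Axl went from 21.7, 33.2, 30.9 and 25.9 CPM to 21.3, 28.5, 25.7 and 23.4 CPM and was lower in 4 of 4 pairs, as were 14.2% of all genes (-0.17, SE 0.14; adjusted p = 0.9999, edgeR). With the transcript length offset the estimate for Axl turned to 0.10, and its deposited TPM was 10.8 ± 2.29 with DHT and 10.8 ± 1.21 with DHT and ENZ (SD, n = 4). Yap1 was at -0.01 (SE 0.07) and Lats2 at 0.12 (SE 0.15).

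Set against KO DMSO, whose libraries also enter the first 2 comparisons, Actn1 in the cells with DHT and ENZ is a description, because the genes were listed with the values of those same KO DMSO libraries known. The level was 19.5, 18.1, 15.5 and 19.3 CPM in KO DMSO, 21.8, 22.1, 18.7 and 20.7 CPM with DHT, and 26.3, 21.2, 21.0 and 24.1 CPM with DHT and ENZ. All 4 libraries with DHT and ENZ were above all 4 of KO DMSO in CPM. In deposited TPM the groups overlapped, at 7.55 to 11.4 with DHT and ENZ and 6.40 to 10.2 in KO DMSO. The log2 fold change was 0.35 (SE 0.11). Actn1 was called in the 3 fits that held the replicate block and in none without it, which supports nothing further given how the genes were listed. The background was 43 genes (0.253%) without the block, with 0 of the 9 genes called, with 5.77% of genes at an unadjusted p under 0.05. With the block it was 499 genes (2.94%, and 0.854% higher), with 1 of the 9 called. Across all 25 alternative fits the Actn1 estimate lay between 0.27 and 0.40.

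Tead1 was the other gene with no overlap in CPM in that comparison. It was higher with DHT and ENZ than in KO DMSO (0.32, SE 0.15, adjusted p = 0.87, edgeR), beside 2.92% of all genes higher with no overlap. In deposited TPM its groups overlapped, at 17.1 to 23.9 with DHT and ENZ and 14.9 to 18.3 in KO DMSO. Tead1 was called in the model with the block and without WT DMSO replicate 1 (0.31, SE 0.07), as were 1247 genes in all. The genes were listed with the values of these KO DMSO libraries known, so the call is no independent evidence. The 623 long genes had a median of 0.08 in this comparison. Ccn2 (0.36, SE 0.27), Ccn1 (0.24, SE 0.24), Amotl1 (0.26, SE 0.15) and Lats2 (0.13, SE 0.15) were higher in 4 of 4 pairs as well, which makes 6 of the 9 genes beside 16% of all genes. The list was made knowing genes that were low in those KO DMSO libraries. The count is therefore a description, and no excess over all genes can be read from it. Without KO DMSO replicate 3, Ccn2 was at 0.19 and Ccn1 at 0.13. Axl was at -0.21 (SE 0.14), and at 0.06 with the length offset.

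Against WT DMSO, where genotype and treatment change together, values are given as a description. Amotl2 was at -0.66 with DMSO, -0.70 with DHT and -0.57 with DHT and ENZ on the log2 scale. Ccn1 was at -0.70, -0.79 and -0.46, and Ccn2 at -0.71, -0.70 and -0.35. Actn1 was at -0.43, -0.22 and -0.07, and Lats2 at -0.34, -0.34 and -0.21. These 3 comparisons share the WT DMSO libraries.

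The remaining genes of the pathway were read from lists of symbols. No gene of the core cascade was called in any of the 4 comparisons, among 13 tested kinases, adaptors and activators such as Stk3, Stk4, Sav1, Lats1 and Nf2. Their median log2 fold change for KO DMSO over WT DMSO was 0.02, with 9 positive and 4 negative. Without WT DMSO replicate 1 it was -0.05, with 4 positive and 9 negative. Wwc1, which encodes the adaptor KIBRA, had the smallest p there (158.5 ± 10.4 CPM in KO DMSO against 179.1 ± 20.4 in WT DMSO, SD, n = 4; -0.18, SE 0.09; adjusted p = 0.9997, edgeR). Of 6 effectors and DNA-binding partners 0 were called in any comparison. Wwtr1, the gene of TAZ, was at 106.3 ± 5.62 CPM with DHT and 124.4 ± 5.15 CPM with DHT and ENZ (SD, n = 4), and did not pass (0.23, SE 0.10; adjusted p = 0.672, edgeR).

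Junction, polarity and scaffold regulators had 0 of 15 genes called in the 4 comparisons. Ajuba, a LIM protein that binds LATS kinases, was at 46.2 ± 10.1 CPM in WT DMSO and 35.5 ± 1.84 CPM in KO DMSO (SD, n = 4; -0.38, SE 0.13; adjusted p = 0.9997, edgeR). The list's median for KO DMSO over WT DMSO was -0.01. Fat1, a giant cadherin upstream of the cascade, was at -0.21 (SE 0.18) there.

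Other genes of a YAP target signature had medians near 0. For KO DMSO over WT DMSO the 15 tested had a median of -0.04, with 9 negative and 6 positive, and 0 were called. With ENZ added to DHT the median was 0.04 and 0 were called without the block. Gadd45a, a stress and DNA damage response gene, passed with the block (as did 3.48% of all genes), at 48.7 ± 3.51 CPM with DHT and 66.6 ± 13.9 CPM with DHT and ENZ (SD, n = 4). Its log2 fold change was 0.42 with the block (adjusted p = 0.037, edgeR) and 0.45 without it (SE 0.14; adjusted p = 0.288, edgeR). Of the CCN family outside Ccn1 and Ccn2 only Ccn6 passed the low-count filter, at 0.31 to 0.75 CPM on average in the 4 groups. The TAM receptors Tyro3 and Mertk and the ligands Gas6 and Pros1 had 0 calls in any comparison.

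Genes of the actin cytoskeleton, many of them SRF targets, mostly had lower estimates in the knockout without passing. Of 19 tested, 18 had a negative log2 fold change for KO DMSO over WT DMSO, with a median of -0.20 beside -0.00 over all genes, and 0 were called. Without WT DMSO replicate 1 the median was -0.17, with 17 negative. The medians in pairs 1 to 4 were -0.18, -0.24, -0.25 and 0.10. Flna, a filamin that crosslinks actin, was at 641.6, 806.8, 547.5 and 540.3 CPM in WT DMSO and 501.2, 541.3, 391.0 and 573.1 CPM in KO DMSO (-0.34, SE 0.14; adjusted p = 0.9997, edgeR). Acta2, the smooth muscle actin of contractile cells, was at 2.28, 11.7, 11.9 and 2.88 CPM in WT DMSO and at 2.82, 3.81, 4.83 and 3.43 CPM in KO DMSO, and is shown here after its values were seen. Its 2 high libraries, WT DMSO replicates 2 and 3, are the ones highest in Ccn1 and Ccn2. The summed markers of pericytes, meninges and fibroblasts ranged from 22.7 to 31.3 CPM in WT DMSO and from 18.8 to 30.0 CPM in KO DMSO, with Pdgfrb, the defining pericyte marker, at 0.14 CPM or less in every library, and their part in the result was not tested. Srf was at 63.7, 58.3, 52.2 and 47.5 CPM in WT DMSO and 49.7, 47.7, 45.9 and 48.0 CPM in KO DMSO. The means were 55.4 ± 7.06 and 47.9 ± 1.56 CPM (SD, n = 4; -0.21, SE 0.09; adjusted p = 0.9997, edgeR). WT DMSO replicate 1 held the highest Srf value, and an estimate without that library is not given here.

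**Figure D4:**
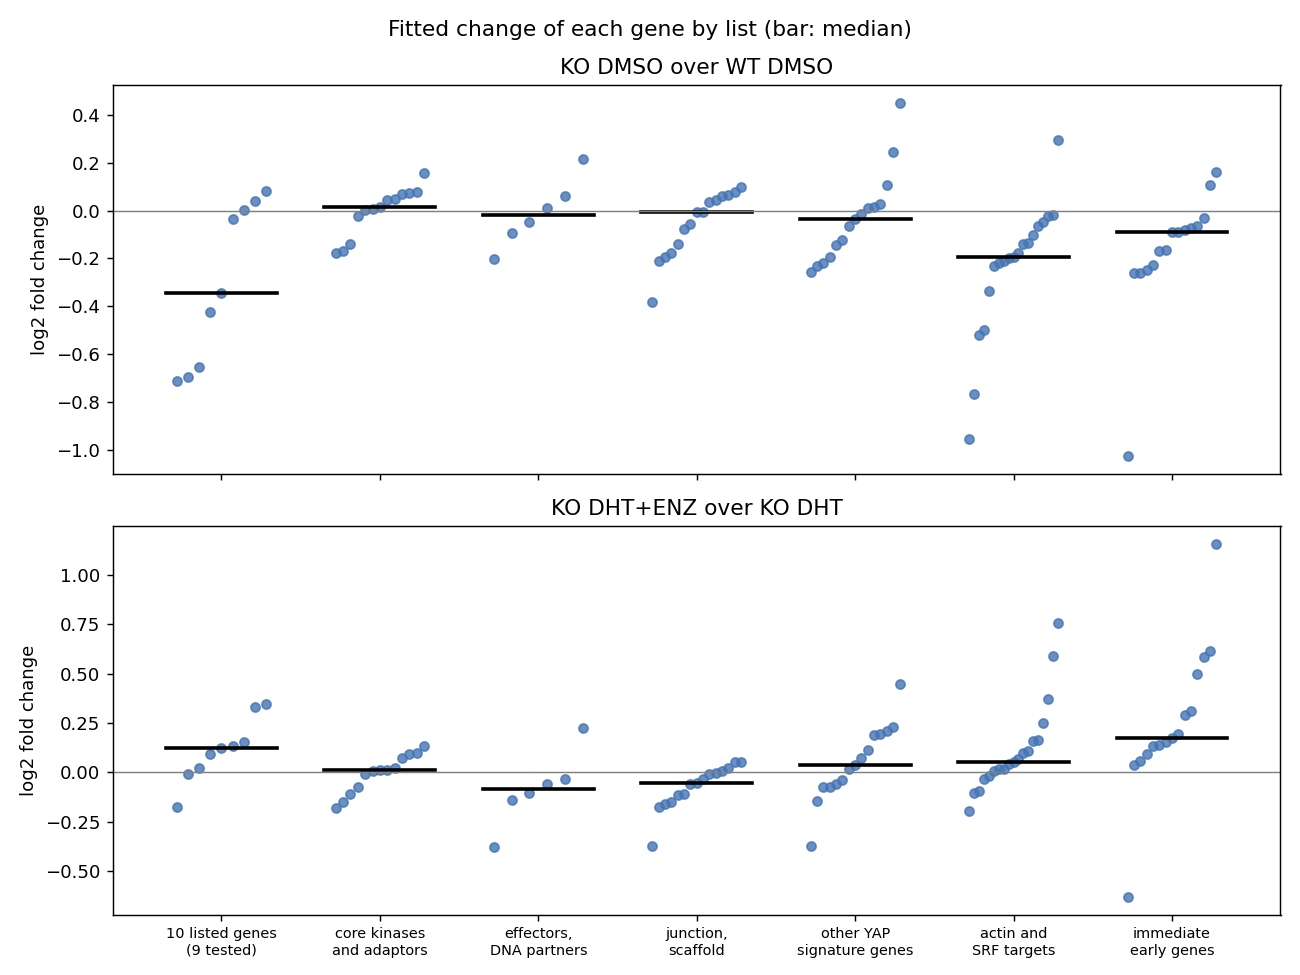
Fitted log2 fold change (y axis, scale differs between panels) of each tested gene in 7 lists, for KO DMSO over WT DMSO (top) and KO DHT and ENZ over KO DHT (bottom); points are genes, bars the list median. In the top panel the listed Hippo-YAP genes have a median of -0.34 and the actin and SRF genes -0.20, and the other lists lie between -0.09 and 0.02.

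Immediate early genes, which growth factor and SRF signals induce, had a median of 0.17 with ENZ added to DHT, with 14 of 15 positive, beside a median of -0.00 over all genes. Without the block 0 were called (0.265% of all genes), and with it 2 were (3.48% of all genes): Nr4a1, an orphan nuclear receptor (7.498 ± 2.02 to 11.5 ± 3.52 CPM, SD, n = 4; 0.60; adjusted p = 0.0037, edgeR with the block), and Klf4 (5.08 ± 0.877 to 7.17 ± 1.25 CPM; 0.50; adjusted p = 0.0395, edgeR with the block). Against KO DMSO the 2 called with the block were Nr4a1 and Fosl2. Mitosis genes gave the most calls of the lists: 6 of 15 were lower with ENZ added to DHT without the block and 14 with it, beside 0.265% and 3.48% of all genes called, among them Mki67 (-0.69, SE 0.10; adjusted p = 0.00753, edgeR).

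The genes most like the listed ones over the 16 libraries were found by the distance of standardized log2 CPM from the mean profile of the 9 genes. The closest of 9738 candidates were Spry4 (0.54), Nexn (0.55), Dse (0.57), Grb10 (0.57) and Pacs2 (0.58), against a median distance of 1.40. Of the listed genes, Lats2 (0.40), Ccn2 (0.46), Ccn1 (0.47), Amotl2 (0.60) and Actn1 (0.62) lay close to that mean and Axl (1.34), Tead1 (1.29), Amotl1 (1.43) and Yap1 (1.53) did not. Each of the 9 genes is itself part of that mean, which lowers its distance. These distances therefore cannot be compared with those of genes outside the list. Without WT DMSO replicate 1 the 5 closest were Nexn, Pacs2, Tnc, Klf6 and Lrrc8c. The distance covers libraries that share replicate number and depth, and it is a description.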

How the data were processed

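PolyA RNA of 16 libraries in 4 groups of 4 was analysed. Quantification used kallisto and GRCm39, per the submitters' processing notes (version not given in the sources used here). Per the file headers, the deposited files hold estimated counts and TPM per transcript, with transcript length and effective length (in bases). The estimated (expected) counts carry no normalization between samples. Of 146190 transcripts, 135007 matched GENCODE M21, an annotation of another build used for names, giving 49166 genes. Sequences and coordinates are RefSeq GRCm38.p6 or GENCODE M21 on GRCm38.

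Gene sums of estimated counts were rounded and fitted with edgeR 4.0.16 in R 4.3.3 (quasi-likelihood, TMM, filterByExpr, 16971 genes, all 16 libraries, Benjamini-Hochberg adjusted p under 0.05). SE is the absolute log2 fold change over the square root of F. Log2 CPM used a prior count of 2. The model was also run on simulated counts, drawn without any effect of the replicate number. That run cannot show how the fit without the block behaves when same-numbered libraries deviate together. Same-numbered libraries deviated together (r across 9747 genes 0.16 to 0.79 in the pairs compared, minimum 0.1), so a replicate block was fitted as an alternative. The main fit leaves the replicate number out, so SE and p-values not marked as with the block ignore this pairing. In 10 of 16 libraries the closest library of another group had the same number, and the labels do not tie numbers to litters. Alternatives included DESeq2 1.42.0, other filters, a transcript length offset and leaving out each library.

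The 10 genes and the gene lists were chosen with earlier results of these data known. All 10 genes are named. Genes given with values from the lists were called with or without the block or had the smallest p, and not all such genes are given. Of the called mitosis genes only Mki67 is named. Acta2 was shown after its values were seen. The genes most alike after removing each replicate number's mean are not reported here. The analysis used Python 3.11.15, pandas 2.3.3 and numpy 2.4.6.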

Additional observations from a re-analysis of the deposited data

Results flagged for a closer look

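In each group of 4 libraries the gap between the most extreme library and its neighbour was compared with the group's range, by Dixon's test at the 95% level, for the 9 genes in 4 groups. Of 36 groups 2 passed, and chance gives about 1 in 20. Tead1 in WT DMSO replicate 1 was at 61.75 CPM, below 109.4 to 113.1 CPM in the other 3 controls. Ccn1 in KO DHT and ENZ replicate 3 was at 11.97 CPM, below 17.0 to 18.0 CPM in the other 3.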

How the results depend on the processing

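Each result was recomputed under 25 other settings. Across them Amotl2, Lats2, Actn1, Ccn1 and Ccn2 stayed negative for KO DMSO over WT DMSO (Amotl2 from -0.78 to -0.44, Ccn2 from -1.003 to -0.44), and Axl moved to -0.21 with a transcript length offset. Signs turned mostly where estimates were near 0, and for Axl, at -0.17 and -0.21, with the length offset. For DHT over KO DMSO, Lats2 was -0.001 with the replicate block and with no filter, -0.003 in DESeq2 with the block and -0.005 with the block and without the 1st WT DMSO library. With ENZ added to DHT, Yap1 was 0.002 with no filter and 0.006 with the length offset, and the offset turned Axl to 0.103, and to 0.063 against KO DMSO. Leaving out single libraries gave, for DHT over KO DMSO, -0.13 to 0.068 for Amotl2, -0.076 to 0.109 for Lats2, -0.022 to 0.046 for Yap1, -0.14 to 0.06 for Axl, -0.205 to 0.071 for Ccn1 and -0.16 to 0.16 for Ccn2. With ENZ added it gave -0.012 to 0.095 for Amotl1 and -0.029 to 0.04 for Yap1, and against KO DMSO -0.003 to 0.044 for Yap1. The cause of these turns was not tested.

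Of the listed genes, 1 changed with DHT and ENZ against KO DMSO with the replicate block and in DESeq2 with the block (Actn1), and 2 with the block and without the 1st WT DMSO library (Actn1 and Tead1); the block changed no other call of these genes. The genes were listed with the KO DMSO values known, so these calls are no independent evidence. Among all genes, KO DMSO against WT DMSO gave 9 in DESeq2 with the block, 1 with the length offset and 3 with the block and without the 1st WT DMSO library, and DHT over KO DMSO gave 1 in the last. With ENZ added to DHT the count of 45 became 591 with the block, 17 with no filter, 86 at a mean of at least 1 CPM, 211 in DESeq2, 1031 in DESeq2 with the block, 12 with the offset and 1480 with the block and without that library, and 2 to 116 when single libraries were left out. Against KO DMSO the count of 43 became 499, 9, 67, 180, 823, 10 and 1247 in the same order, 0 with only the groups compared, and 0 to 98 when single libraries were left out. Calls with the block were 1 in the YAP signature and 2 in the immediate early list with ENZ added, 2 in the latter against KO DMSO, and 14 in the mitosis list in both. Leaving out WT DMSO replicate 1 from the list medians was chosen after seeing the data. Ankrd1 was too low for any comparison.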
